A study of Homo sapiens with 12 samples.

Results

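The proteasome genes were followed one by one through the 4 groups of a ribosome profiling experiment in HepG2, a line of human hepatocellular carcinoma cells. The members were the protein-coding genes whose symbol begins with PSMA, PSMB, PSMC, PSMD, PSME, PSMF or PSMG and a number, together with POMP, ADRM1 and SEM1, while the inducible catalytic subunits other than PSMB10 were not taken. The rule used names alone and found 51 of 58721 genes, of 19831 protein-coding genes in the files. It gave 8 alpha and 9 beta subunits of the 20S core, 6 ATPases and 13 other subunits of the 19S regulatory particle, 5 assembly factors of the core, 3 of the regulatory particle, 5 other activators or inhibitors, and 2 genes (PSMC3IP and PSME3IP1) that carry a proteasome gene in their name without being subunits. HepG2 cells received a control siRNA (siControl) or a transient siRNA that targets IGF2BP3 (siIGF2BP3), a protein that binds mRNA, and both were treated 2 days later with 100 µg/mL cycloheximide for 4 min, which holds ribosomes in place. From each condition 3 libraries held ribosome-protected fragments (RPF, 28 to 30 nt) and 3 held Input RNA. The groups were therefore siControl Input, siControl RPF, siIGF2BP3 Input and siIGF2BP3 RPF, with 12 libraries in all, from 1 cell line with no second siRNA named in the labels.

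The proteasome degrades proteins that carry ubiquitin. Its core is a barrel of 4 stacked rings, of which the outer alpha rings form the gate and the inner beta rings hold the proteolytic sites of PSMB5, PSMB6 and PSMB7. The regulatory particle caps the barrel: its ATPases (PSMC) unfold the substrate, PSMD4 and ADRM1 bind ubiquitin, and PSMD14 removes the ubiquitin chain. POMP and the PSMG chaperones assemble the core, whereas PSMD5, PSMD9 and PSMD10 chaperone the base of the regulatory particle. PSME1 to PSME4 are alternative caps that open the core without the ATPase ring of the regulatory particle, and PSMF1 is an inhibitor. The comparisons below ask how much Input RNA and how many footprints each member had in control cells. They also ask whether either quantity moved after knockdown of IGF2BP3. Input gives the level of RNA and not the rate of transcription.

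Total estimated counts ranged from 11219750 to 14797573 in Input and from 13036423 to 31510601 in RPF libraries. IGF2BP3 itself lay between 127 and 133 CPM (a gene's counts as a share of its library total, on the usual scale) in siControl Input and between 97.9 and 105 CPM in siIGF2BP3 Input, and between 74.6 and 78.1 CPM against 21.9 to 28 CPM in RPF. Its log2 fold change was -0.39 in Input and -1.59 in RPF, so the knockdown was partial and most of the transcript remained in Input. The liver genes ALB and AFP, which HepG2 cells are known to express, had at least 8278 and 7229 CPM in each Input library. In siControl RPF, replicates 2 and 3 differed by less than the sampling noise (chi-square per gene 0.913) and were counted as 1 sample in means and SDs, which gives n = 2 for that group. The tests kept them as 2 libraries, as labelled, and counts of calls are also given with both summed into 1. In siIGF2BP3 RPF, replicate 1 stood apart (chi-square per gene 18.1 and 19.6 against the other 2 libraries, which gave 1.1 against each other), so results from it are given with and without it. Nothing in the labels says that replicates were separate cultures, and p-values then measure only the spread between these libraries, which may be technical. CPM values are shares of a library, so fewer cells with a transcript and less transcript per cell cannot be told apart.

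Translation of a member starts in the sequence around its AUG, which is shown here for the genes on which the results turn. The 15 bases come from the Ensembl canonical transcript of GENCODE release 44 on hg38 and begin 9 bases before the AUG. Capitals mark position -3, the start codon and position +4, counted from the A of the start codon as +1. The first 4 genes passed the test in Input. By counts over all exons, the next 3 had the most footprints for their Input among members above 5 CPM in both assays. PSMD7 and PSMC3IP had among the fewest, and PSMB5 is a catalytic subunit.
PSME1: gtcccgGtcATGGcc
PSMD14: accagaAatATGGac
PSME4: cctgggCtcATGGag
PSME3IP1: tgtttcAttATGGat
PSMB4: gtgactAagATGGaa
PSMD5: gggggcAagATGGca
PSMB2: tccgccAccATGGag
PSMD7: tgtgtcGcgATGCcg
PSMC3IP: ggaaagGcgATGAgt
PSMB5: acactaGacATGGcg
A purine stood at position -3 in 49 of 51 members (96.1%), against 86.1% of 19159 canonical protein-coding transcripts. A G stood at position +4 in 28 members (54.9%, against 51.4%). The exceptions at position -3 were PSME4 and PSMF1, which both had a C there. Both PSMB4 and PSMC3IP, at opposite ends in footprints for their Input by counts over all exons among members above 5 CPM, carried the purine. At position +4 they differed, with a G in PSMB4 and an A in PSMC3IP. Whether the start context goes with the ratio was not tested.

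Transcription of proteasome subunit genes is known to be raised together by NFE2L1, a factor that binds antioxidant response elements. RefSeq promoter windows of GRCh38.p14, from 250 bases before to 50 after a gene's start, held an entry for 45 of the 51 members, and the other 6 were PSMA7, PSMB1, PSMB6, PSMB7, PSMD4 and PSMG3. The core letters of that element, TGACNNNGC on either strand, were found for 16 of the 45 genes (35.6%), against 16.1% of all 27305 genes with a window. Unlike the members, those 27305 genes were not limited to protein-coding genes, here and for the other strings below. Examples from the core (PSMA4, PSMB3) and the regulatory particle (PSMC5, PSMD3, PSMD12) follow, read along the gene's own strand with the matched letters in capitals.
PSMA4, chr15:78540650-78540678, plus strand: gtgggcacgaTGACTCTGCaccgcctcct
PSMB3, chr17:38752627-38752655, plus strand: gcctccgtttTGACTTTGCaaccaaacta
PSMC5, chr17:63827654-63827682, plus strand, match on the opposite strand: gaccggatctGCTGTGTCAgcgccgccct
PSMD3, chr17:39980760-39980788, plus strand: tcccctttgtTGACTCGGCcatcggcctg
PSMD12, chr17:67366724-67366752, minus strand: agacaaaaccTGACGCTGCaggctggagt
Among these windows CCGGAAG, a core letter string of ETS factor sites, was found for 18 of 45 members (40%) against 12.2% of all genes, and CCAAT for 23 (51.1%) against 39.7%, on either strand. None of these 3 strings is contained in another. These are matches of letters in a window and not binding sites.

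In control cells the core was translated at a higher level than the regulatory particle. Per kilobase of coding sequence, the 14 constitutive core subunits (PSMA1 to PSMA7 and PSMB1 to PSMB7) had a median of 323 ± 1.12 CPM (SD of the library medians, n = 2) in siControl RPF and the 19 regulatory particle subunits one of 127 ± 0.275 CPM. Over the same scale the median of 11516 protein-coding genes was 17.2 CPM per kilobase. The core median was 2.58, 2.54 and 2.61 times the regulatory particle median in the 3 siControl RPF libraries, and 2.34, 2.52 and 2.49 times in siIGF2BP3 RPF. In Input, per kilobase of the canonical transcript, the same quotient lay at 1.96, 1.77 and 1.85 in siControl and at 1.96, 2.04 and 2.06 in siIGF2BP3. All 4 groups thus had the core median above that of the regulatory particle, and the quotient was higher in each RPF library than in each Input library. In siControl Input this did not hold for both rings: the beta ring median was 92 CPM per kilobase and the alpha ring median 36.5, beside 42.5 for the regulatory particle. With the counts of read-through genes added, as described below, the alpha ring median was 62.5. Core subunits ran from 17.1 to 325 in siControl Input and regulatory particle subunits from 18.1 to 256, so the 2 sets overlapped.

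**Figure D1:**
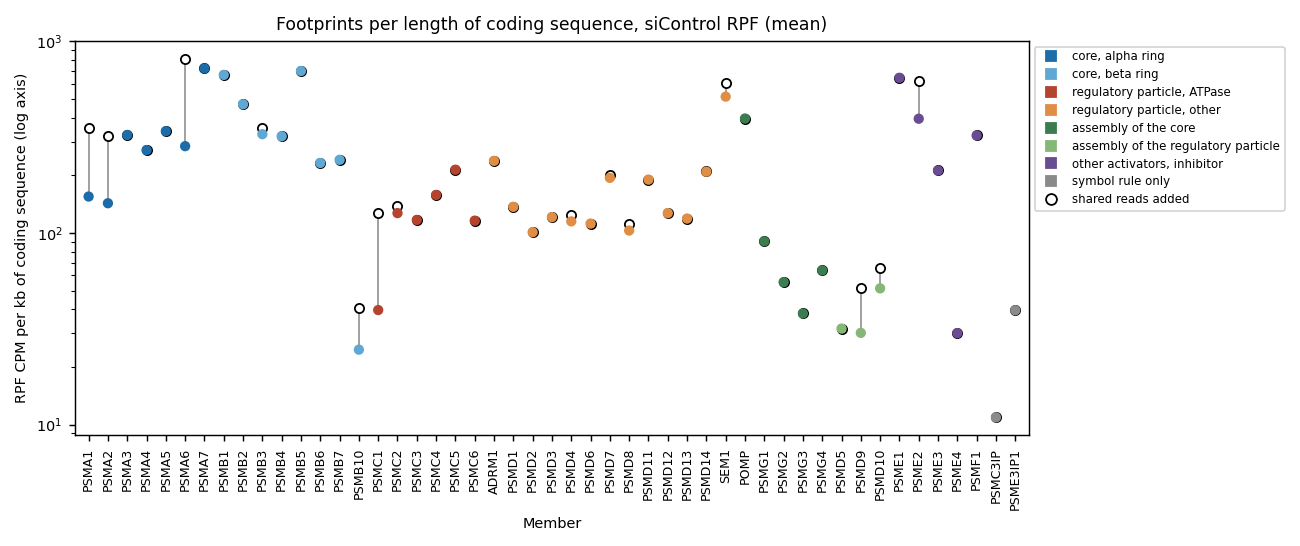
Footprints of the 49 members with counts in siControl RPF, as mean CPM per kilobase of coding sequence on a log axis, coloured by class. Open circles add the counts that the files give to read-through genes and processed pseudogenes; PSMA1, PSMA2, PSMA6 and PSMC1 move most, and the regulatory particle subunits then lie between 101 and 609.

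Within the core the subunits ranged from 143 CPM per kilobase for PSMA2 to 723 for PSMA7, a quotient of 5.05, and 9 of 14 lay within 2-fold of the median. Of the catalytic subunits, PSMB5, the chymotrypsin-like site, reached 701 ± 9.91 CPM per kilobase (SD, n = 2), whereas PSMB6, the caspase-like site, had 232 ± 6.04 and PSMB7, the trypsin-like site, 241 ± 0.644. PSMB6 and PSMB7 differed by about the spread of PSMB6, and PSMB5 stood far above both. PSMB6 was the lowest beta subunit of the constitutive core. PSMB10, the inducible counterpart of PSMB7, had 24.6 CPM per kilobase.

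Of the 19 regulatory particle subunits, 17 lay within 2-fold of the median of 127 CPM per kilobase, but the highest was 13 times the lowest and the SD of the log2 values was 0.73, as in the core. SEM1, the smallest subunit, was highest at 515 and PSMC1, one of the ATPases, lowest at 39.6, and the ATPases otherwise ran from 116 for PSMC6 to 214 for PSMC5. PSMD14, the deubiquitinase, had 209 ± 6.38 CPM per kilobase (SD, n = 2), and the lowest non-ATPase was PSMD2 at 101.

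Assembly factors were translated at lower levels than the particles they build, with POMP as the exception. POMP, a maturation factor that is consumed with each new core, had 396 ± 12.5 CPM per kilobase, above the core median of 323. The PSMG chaperones lay between 38 for PSMG3 and 90.5 for PSMG1. The regulatory particle chaperones lay between 30.1 for PSMD9 and 51.4 for PSMD10. Of the alternative caps, PSME1 was highest at 646 and PSME4, a single very large protein, lowest at 30. The genes named after a subunit, PSMC3IP, a recombination factor, and PSME3IP1, a binding partner of the PSME3 cap, had 10.9 and 39.5.

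The lowest core and regulatory particle values belonged to genes that share reads with other loci. PSMC1 has 13 processed pseudogenes, and these held 116 CPM in siControl RPF, or 68.8% of the reads of PSMC1 and its copies together, against 19.8% in siControl Input. PSMA6 has 4, which held 43.7% of the reads in RPF and 1.08% in Input, and the 6 copies of PSME2 held 36.3% and 1.4%. Over all 18 members with named processed pseudogenes, the 45 copies took 16.7% of the reads in siControl RPF and 1.18% in siControl Input, and 16.5% and 1.14% after knockdown. PSMC1 also shares 4671 of its 6161 exon bases with NRDE2 on the opposite strand, a gene at 23 CPM in siControl Input. Whether that overlap affected the counts of PSMC1 was not tested.

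A second kind of sharing came from read-through genes, which carry the exons of a member and of its neighbour. Such a gene overlaps PSMA1, PSMA2, PSMA6, PSMB10 and PSMD9 on the same strand, and it held between 39.1% (PSMB10) and 55% (PSMA1) of the reads of the pair in siControl RPF. Adding the reads of both kinds gives an upper bound, because the read-through genes and pseudogenes can have reads of their own. With them, PSMC1 went from 39.6 to 127 CPM per kilobase in siControl RPF, level with the median of the regulatory particle, and PSMA1 and PSMA2 moved from 155 and 143 to 355 and 321, next to a core median of 347. PSMA6 moved from 284 to 813 and became the highest core subunit. The quotient of highest to lowest then narrowed from 5.05 to 3.5 in the core and from 13 to 6.05 in the regulatory particle, with 11 of 14 and 18 of 19 subunits within 2-fold of their median. The core median remained 2.68 ± 0.038 times (SD, n = 2) the regulatory particle median in siControl RPF.

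Most members had more footprints for their Input than the average gene. In edgeR's quasi-likelihood test of siControl RPF against siControl Input, centred on the average gene, 38 of the 49 members tested (77.6%) were higher in RPF, while 44.9% of all 12858 genes were. Another 7 members (14.3%) were lower in RPF, against 45.1% of all genes. The median log2 ratio of the members was 1.13, beside -0.01 for all genes tested. By class it was 1.63 in the core, 1.11 in the regulatory particle, 1.00 for assembly factors of the core and 1.61 for those of the regulatory particle, and 0.14 for the other activators and the inhibitor. Counts cover all exons, and a median of 69.2% of the canonical transcript was coding for the members against 49.2% for all genes. When footprints were divided by coding length and Input by transcript length, the median log2 ratio was 1.96 in the 14 constitutive core subunits and 1.41 in the regulatory particle. It was 1.88 for assembly factors of the core, 3.08 for the 3 of the regulatory particle and 0.90 for the other activators and the inhibitor. Over 11516 protein-coding genes it was 1.06, so the order of the classes depended on the measure.

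**Figure D2:**
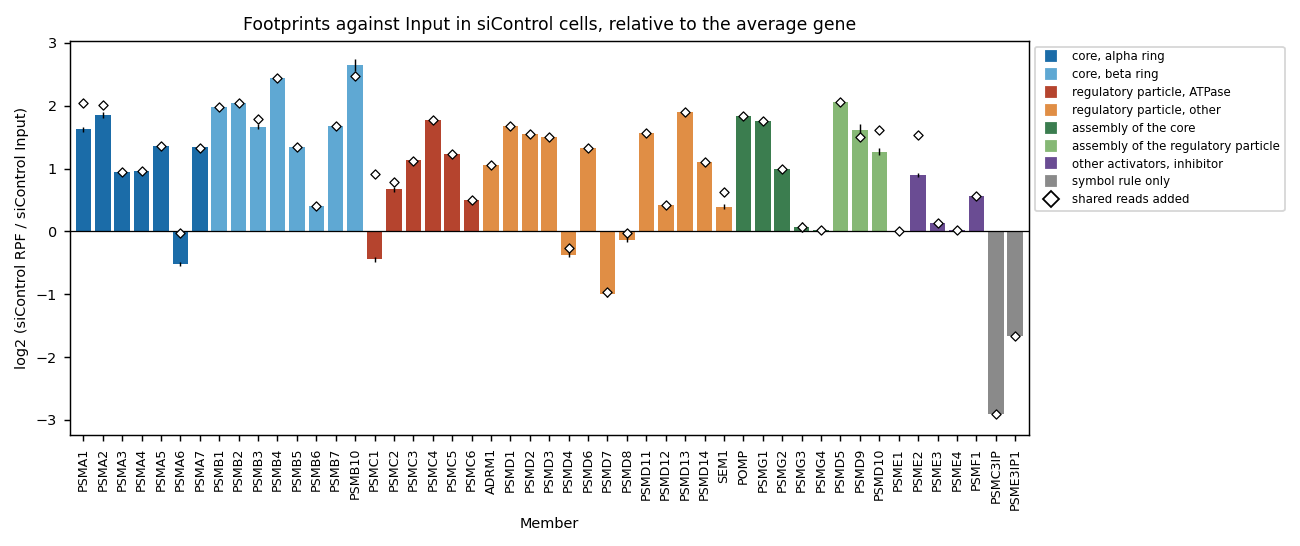
Log2 ratio of siControl RPF to siControl Input for the 49 tested members, relative to the average gene at 0, with bars coloured by class and error bars of 1 SE. Diamonds show the fit with read-through and pseudogene counts added; PSMB10, PSMB4, PSMD5 and PSMB2 lie above 2 and PSMC3IP and PSME3IP1 below -1.

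By counts over all exons, the most footprints for their Input, among members above 5 CPM in both, were seen for PSMB4, PSMD5 and PSMB2. PSMB4, a non-catalytic beta subunit, had 57.7, 51.3 and 46.4 CPM in siControl Input and 253, 249 and 260 CPM in siControl RPF (log2 ratio 2.44 ± 0.05 SE, adjusted p = 1.61e-19). PSMD5, a chaperone of the regulatory particle, had 12.2, 12.6 and 13 CPM in Input and 49.6, 46 and 46.5 CPM in RPF (log2 ratio 2.06 ± 0.06 SE). PSMB2 stood at 74.5, 77.9 and 74.4 CPM in Input and at 284, 281 and 284 CPM in RPF (log2 ratio 2.05 ± 0.04 SE). In none of the 3 genes did the libraries of both assays overlap, which follows from their choice by the highest ratios. The coding part is only 13.6% of the canonical PSMB2 transcript and 86.3% of that of PSMB4. With footprints divided by coding length and Input by transcript length, the order changed. The log2 ratio was then 4.78 for PSMB2, 3.08 for PSMD5 and 2.50 for PSMB4. PSMA5 at 3.62 and POMP at 3.35, among others, stood above PSMD5 and PSMB4. PSMB10 had a higher log2 ratio, 2.65 ± 0.1 SE, at 3.51 to 3.64 CPM in siControl Input and 19.8 to 20.7 CPM in siControl RPF.

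At the other end were the 2 genes that are no subunits and 1 regulatory particle subunit. PSMC3IP had 56.3, 58.6 and 59.9 CPM in siControl Input and 7.3, 6.8 and 6.89 CPM in siControl RPF (log2 ratio -2.90 ± 0.06 SE, adjusted p = 4.04e-19), and shares 770 exon bases with MLX on the opposite strand, at a strandedness of counting that is not given in the sources used here. PSME3IP1 had 103, 107 and 104 CPM in Input and 31.6, 29.6 and 27.7 CPM in RPF (log2 ratio -1.67 ± 0.05 SE). PSMD7, a subunit of the regulatory particle lid, had 426, 396 and 432 CPM in Input and 189 CPM in each RPF library (log2 ratio -1.0 ± 0.04 SE). Of the remaining genes that were lower in RPF, PSMA6 at -0.52 and PSMC1 at -0.44 moved to -0.03 and 0.91 when the shared reads were added, while PSMD4 at -0.37 and PSMD8 at -0.13 moved to -0.26 and -0.02. All 3 genes given in full had each RPF library below each Input library, which follows from their choice by the lowest ratios. Divided by coding and transcript length, the log2 ratio was -1.99 for PSMC3IP, -0.40 for PSMD7 and 0.09 for PSME3IP1. PSMD4 at -0.30 and PSMA6 at -0.20 then lay below PSME3IP1.

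Catalytic subunits differed among themselves in this ratio. PSMB7 had a log2 ratio of 1.68 ± 0.04 SE, PSMB5 one of 1.34 ± 0.03 and PSMB6 one of 0.40 ± 0.04, with 139, 143 and 140 CPM of PSMB6 in siControl Input and 164, 167 and 173 CPM in siControl RPF. POMP was at 1.83 ± 0.04 and PSMD14 at 1.11 ± 0.04. All 5 were higher in RPF by the test.

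PSMA8, the alpha subunit of the testis, was listed at 0 in each of the 12 libraries, where a count of 0 allows up to 0.267 CPM in the shallowest library. PSMB11, the beta subunit of the thymus, summed to 1.25 estimated counts over the 12 libraries. These limits cover counting error only. Both genes were left out by the filter on low counts, so the tests cover 49 of the 51 members.

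After knockdown of IGF2BP3, 4 members passed the test in Input and they went in both directions. PSME1 and PSMD14 fell, and PSME4 and PSME3IP1 rose, so 8.16% of the 49 members tested were called, beside 5.96% of 14759 genes. The changes were small, between 0.17 and 0.21 on the log2 scale in either direction. Of the other members, 39 of 45 had a log2 fold change below 0 that did not pass. The median over the members was -0.08, beside 0.00 for all genes tested.

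PSME1 (chr14:24136158-24138967, plus strand, hg38), a subunit of the 11S cap, had 542, 527 and 536 CPM in siControl Input and 477, 478 and 483 CPM in siIGF2BP3 Input. Every siIGF2BP3 library was below every siControl library, at -0.21 ± 0.04 SE on the log2 scale (edgeR, adjusted p = 0.00283). The change was called under every alternative run, and it was the sole call left in 3 of the 6 fits that omit 1 library. Its partner in the same ring, PSME2, had 174, 166 and 166 CPM against 173, 176 and 172 CPM, and at -0.00 ± 0.04 SE it did not pass (adjusted p = 0.973).

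PSMD14 (chr2:161308038-161411717, plus strand), the deubiquitinase of the lid, had 102, 98.1 and 98.3 CPM in siControl Input and 96.8, 85.1 and 85.5 CPM in siIGF2BP3 Input. The groups did not overlap, although siIGF2BP3 replicate 1 lay close to the siControl libraries (log2 fold change -0.21 ± 0.06 SE, adjusted p = 0.0258). It was not called when siControl replicate 2 or 3, or siIGF2BP3 replicate 2 or 3, was left out (adjusted p between 0.0511 and 0.138).

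PSME4 (chr2:53864067-53970840, minus strand), the PA200 cap, had 194, 172 and 179 CPM in siControl Input and 209, 214 and 213 CPM in siIGF2BP3 Input, without overlap (log2 fold change 0.18 ± 0.05 SE, adjusted p = 0.0241). PSME3IP1 (chr16:57152466-57186116, minus strand) had 103, 107 and 104 CPM and 124, 117 and 124 CPM, also without overlap (log2 fold change 0.17 ± 0.05 SE, adjusted p = 0.0408). These calls rest on the full set: PSME4 was called in 2 of the 6 fits that omit 1 library, and PSME3IP1 in 1, with adjusted p of up to 0.126 and 0.14 in the others. PSME4 was also not called with a length offset (adjusted p = 0.0553), nor PSME3IP1 with DESeq2 (0.0602) or without a filter on low counts (0.0783).

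**Figure D3:**
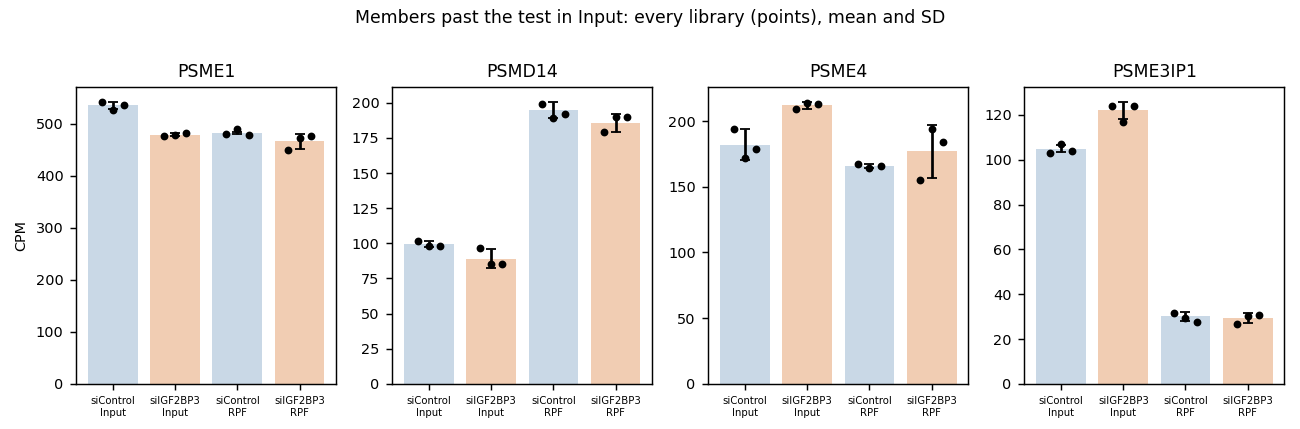
CPM of the 4 members that passed the test in Input, with 1 point per library, bars for the group mean (siControl RPF replicates 2 and 3 averaged first) and error bars of 1 SD. The 4 genes were chosen by the Input test, which favours Input groups that lie apart, and these do not overlap in any of them. In RPF the groups overlap for PSMD14, PSME4 and PSME3IP1. For PSME1 they lie next to each other in RPF, at 479 to 489 CPM in siControl and 449 to 476 CPM in siIGF2BP3.

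Core and regulatory particle had the same median in Input. In the core 13 of 15 tested subunits had a log2 fold change below 0 with a median of -0.09, and in the regulatory particle all 19 did with a median of -0.09; the single call among these 34 genes was PSMD14. DESeq2 also called PSMA6 and PSMB5, RLE factors PSMA5 and PSMB5, and a length offset PSMA5 and SEM1. PSMB5 had 250, 244 and 237 CPM in siControl Input and 223, 231 and 232 CPM in siIGF2BP3 Input, without overlap, but at -0.14 ± 0.04 SE it did not pass (adjusted p = 0.0601, against 0.0319 with DESeq2 and 0.0485 with RLE factors). PSMB6 was at -0.13 ± 0.05 SE (adjusted p = 0.109), PSMB7 at -0.01 ± 0.06 and POMP at -0.12 ± 0.06. The next lowest member was PSMA2 at -0.17 ± 0.07 SE (adjusted p = 0.202), and the next highest above 5 CPM was PSMD9 at 0.09 ± 0.14 SE. Summed over the 51 members, siControl Input held 5798, 5615 and 5627 CPM and siIGF2BP3 Input 5528, 5487 and 5616 CPM, and these sums overlapped.

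In RPF none of the 49 members passed the test, where 1.66% of 20192 genes did. Without adjustment 3 of the 49 members had p under 0.05, beside 3251 of the 20192 genes, and DESeq2 called 0 members as well. With siControl RPF replicates 2 and 3 summed, 0 members and 0.0673% of 20790 genes passed. The median log2 fold change of the members was -0.03, beside 0.01 for all genes tested, and that of the core was -0.06 and of the regulatory particle -0.03. The lowest values were those of PSMD10 at -0.16 ± 0.09 SE, PSMC3 at -0.13 ± 0.04 and PSMD4 at -0.11 ± 0.05, and the highest were those of PSMG4 at 0.26 ± 0.12, PSMB10 at 0.22 ± 0.15 and PSMD8 at 0.14 ± 0.05. None of these 6 passed (adjusted p between 0.182 and 0.534). Without siIGF2BP3 RPF replicate 1, PSMG4 was at 0.11, PSMB10 at 0.04 and PSMD10 at -0.08, and the medians were -0.02 in the core and 0.02 in the regulatory particle. PSMB5 was at -0.05 ± 0.04, PSMB6 at -0.09 ± 0.05, PSMB7 at -0.06 ± 0.05, POMP at -0.01 ± 0.06 and PSMD14 at -0.03 ± 0.04.

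The library that stands apart did so for the members as well. In siIGF2BP3 RPF replicate 1 39 of 49 members were below the siControl RPF mean with a median log2 deviation of -0.12, against -0.06 for all genes tested, and the members ran from -0.44 for PSMD10 to 0.52 for PSMB10. In siIGF2BP3 RPF replicates 2 and 3 the median deviations were 0.00 and 0.01 and 23 and 21 members were below 0. PSMB10 had 29.4 CPM in replicate 1 and 21.1 and 20.5 CPM in the other siIGF2BP3 RPF libraries, against 19.8, 20.7 and 20.4 CPM in siControl RPF. PSMG4, a PSMG chaperone that shares 1388 exon bases with SLC22A23 on the opposite strand, had 32.8 CPM against 25.8 and 25.

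**Figure D4:**
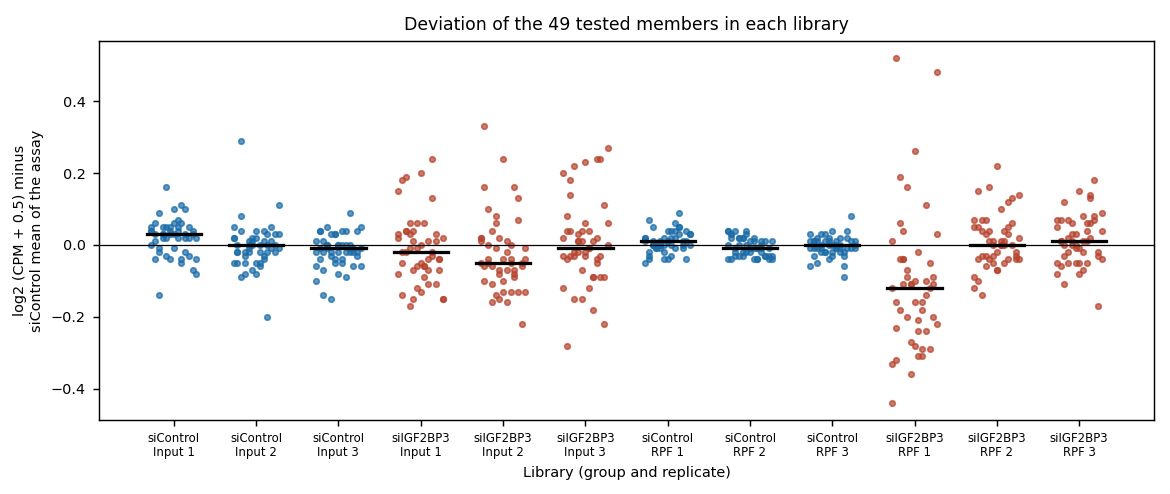
Deviation of each of the 49 tested members from the siControl mean of its assay, in log2 of CPM plus 0.5, for each of the 12 libraries, with a bar at the median. siIGF2BP3 RPF replicate 1 has a median of -0.12 and the widest scatter; the other RPF medians lie between -0.01 and 0.01.

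The median SE of the members in this comparison was 0.06 with siIGF2BP3 RPF replicate 1 and 0.03 without it. Without that library 6 of 49 members (12.2%) passed in RPF, and so did 16.5% of 20615 genes. PSME4 rose in footprints as it had in Input, from 167, 164 and 166 CPM in siControl RPF to 194 and 184 CPM in siIGF2BP3 RPF replicates 2 and 3 (log2 fold change 0.19, adjusted p = 0.00159), while replicate 1 held 155 CPM. PSMG2, PSMG1 and PSMD1 also rose, by 0.16, 0.13 and 0.09 on the log2 scale, and PSMC3 and PSMD3 fell by 0.13 and 0.11. PSMG1 and PSMG2 form 1 dimer that chaperones the alpha ring. PSMG2 had 44, 44.1 and 43.6 CPM in siControl RPF and 48 and 49.9 CPM in siIGF2BP3 RPF replicates 2 and 3, and 42.3 CPM in replicate 1. With siControl RPF replicates 2 and 3 summed in this fit, 5 of 49 members (10.2%) passed, beside 14.5% of 20901 genes, and PSMD1 was no longer among them. The 2 siIGF2BP3 libraries left differ by about sampling noise, so these calls rest on a spread that may be technical.

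The change of footprints relative to Input (translational efficiency, TE) passed the test for none of the 49 members, beside 2.17% of 13395 genes, nor with siControl RPF replicates 2 and 3 summed, where 1.06% of 13495 genes passed. Without adjustment 4 of the 49 members had p under 0.05, beside 2130 of the 13395 genes. DESeq2 called 1 member, PSME1, at a log2 change of 0.18 ± 0.05 SE (adjusted p = 0.0157). In edgeR PSME1 was likewise at 0.18 ± 0.06 SE, with an adjusted p of 0.112. Its footprints, at 481, 489 and 479 CPM in siControl RPF and 449, 473 and 476 CPM in siIGF2BP3 RPF, had each siIGF2BP3 library below each siControl library, at -0.04 ± 0.04 SE, which did not pass (adjusted p = 0.719). The highest values were those of PSMD8 at 0.24 ± 0.08 SE, PSMG4 at 0.20 ± 0.14 and PSMD14 at 0.18 ± 0.07, and the lowest were those of PSMD10 at -0.23 ± 0.13, PSME3IP1 at -0.16 ± 0.08 and PSMB3 at -0.09 ± 0.07. PSMB5 was at 0.09 ± 0.06, PSMB6 at 0.04 ± 0.07, PSMB7 at -0.04 ± 0.07 and POMP at 0.12 ± 0.08.

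The members' median in TE was 0.07, with 36 of 49 above 0, beside 0.01 for all genes tested. It was 0.04 in the core and 0.09 in the regulatory particle, and within the latter 0.12 for the non-ATPases and 0.04 for the ATPases. Without siIGF2BP3 RPF replicate 1 these medians were 0.06, 0.13, 0.14 and 0.11. The TE and Input comparisons use the same Input libraries, so a lower Input and a higher TE of a member are not separate observations. Without siIGF2BP3 RPF replicate 1, 5 of 49 members (10.2%) had a higher TE and 0 a lower one. Of 13479 genes, 611 (4.53%) had a higher and 739 a lower TE. Counting both directions, the members were called about as often as all genes. The 5 members were PSMD8 at 0.21, PSMA5 at 0.20, PSME1 and PSMD12 at 0.19 and PSMD1 at 0.17. With siControl RPF replicates 2 and 3 summed as well, 3 members (6.12%) passed, PSMA5, PSMD8 and PSME1, all higher. Of 13522 genes 470 were then higher and 618 lower, or 8.05% in either direction. Of these PSMA5 belongs to the alpha ring, and PSMD1, PSMD8 and PSMD12 to the regulatory particle.

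**Figure D5:**
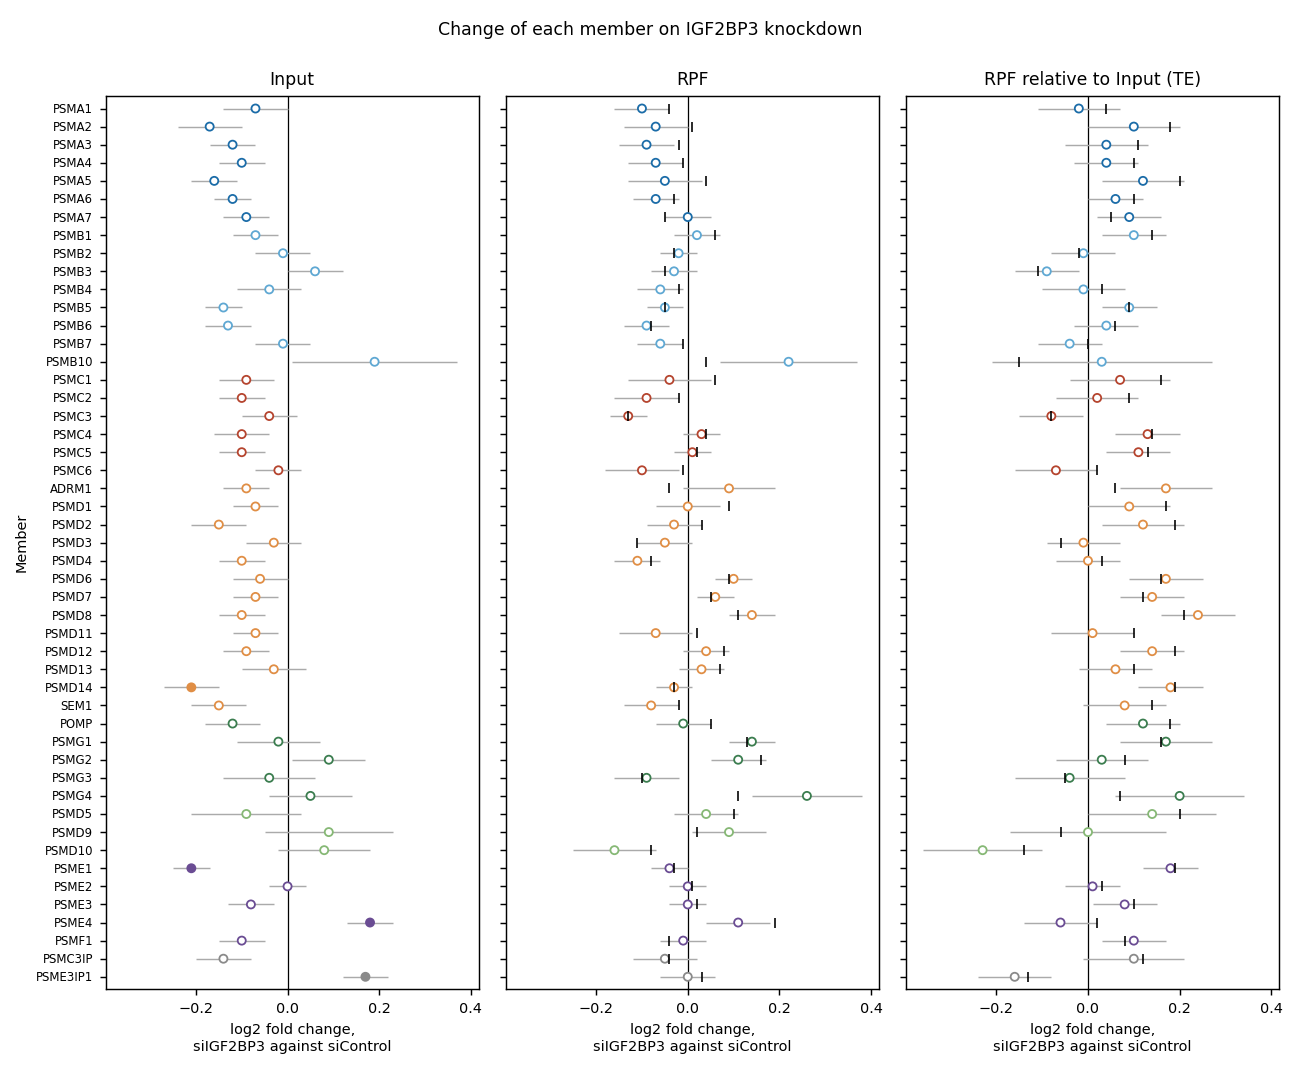
Log2 fold change of siIGF2BP3 against siControl for each tested member in Input, in RPF and in RPF relative to Input, with bars of 1 SE and colours as in the plot of footprints per length. Filled points passed the test (4 in Input, none in RPF or TE), and vertical ticks give the value without siIGF2BP3 RPF replicate 1.

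The genes that work with the proteasome were called about as often as all genes in Input, of which 5.96% passed. Of 30 genes for ubiquitin supply, proteasome-bound enzymes, shuttle factors, the VCP unfoldase and transcriptional control, 1 rose and 1 fell in Input and none passed in RPF or TE, with medians of -0.01, -0.02 and -0.01. ZFAND5, a factor that binds and activates the proteasome, had 110, 111 and 115 CPM in siControl Input and 124, 136 and 136 CPM in siIGF2BP3 Input (log2 fold change 0.19 ± 0.05 SE, adjusted p = 0.0237). TXNL1, a thioredoxin-like protein bound to the regulatory particle, had 99.8, 110 and 104 CPM and 93.7, 92.7 and 96.9 CPM (log2 fold change -0.20 ± 0.05 SE, adjusted p = 0.0227). Neither pair of groups overlapped. Without siIGF2BP3 RPF replicate 1, 4 of the 30 rose and 4 fell in RPF, where 16.5% of all genes passed. In that setting 3 of the 30 had a higher and 1 a lower TE, beside 611 higher and 739 lower of 13479 genes. In siControl cells these 30 genes had a median log2 ratio of RPF to Input of 0.22, beside 1.13 for the proteasome members.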

How the data were processed

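HepG2 Input and RPF libraries (3 per group) were analysed. The submitters' processing notes name Cutadapt, STAR, featureCounts and hg38. What they deposited is 1 estimated count for each gene and library, summed over its exons. Versions and options are not given in the sources used here, nor is how Input libraries were made. Fractional values, as splitting of shared reads gives, occurred for 31.8% to 33.28% of detected genes in Input and 63.19% to 66% in RPF. Counts were rounded before testing.

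Identifiers without version were looked up in GENCODE release 44 for symbol and type (99.1% matched). The members and gene lists were chosen with earlier results of these data known. Comparisons used edgeR 4.0.16 in R 4.3.3: filterByExpr, TMM factors (within each assay for TE, the interaction over 12 libraries, and for RPF against Input), robust quasi-likelihood tests and a Benjamini-Hochberg threshold of 0.05 over all genes tested. DESeq2 1.42.0, which the study's methods name for TE, was an alternative. SEs are the log2 fold change divided by the root of its F statistic. Scripts were tested on simulated data. CPM are counts over library totals. Coding and transcript lengths are those of the GENCODE canonical transcript, in place of RefSeq proteins as first planned, and the annotation release behind the files is not given in the sources used here.

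Full values were given for called members (at most 12 a comparison), the 3 highest and 3 lowest members at or above 5 CPM in each comparison, PSMB5, PSMB6, PSMB7, POMP, PSMD14 and the extremes of each class; other members named were chosen after their values were seen. Further alternatives were RLE factors, no filter, a length offset, added pseudogene or read-through counts, leaving out each library, a replicate block, and siControl RPF replicates 2 and 3 summed. Counts added from read-through genes, and the fit with the pair summed and siIGF2BP3 RPF replicate 1 left out, were chosen after seeing the data.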

Additional observations from a re-analysis of the deposited data

How the results depend on the processing

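The count of members called in Input was 4 of 49 tested, beside 5.96% of 14759 genes. Leaving out 1 library gave counts from 1 to 4, with PSME1 called in each of the 6 fits. DESeq2 called 5, RLE factors 6, a length offset 5 and no filter 3. Shares over all genes under these alternatives are not given here, so these counts are not read as a result about the members. In RPF the count was 0 in every alternative that kept siIGF2BP3 RPF replicate 1 and 6 without it, so the range over left-out libraries was 0 to 6. In TE it was 0 in every alternative that kept that library except for 1 with DESeq2, and 5 without siIGF2BP3 RPF replicate 1, a range of 0 to 5 over left-out libraries. With siControl RPF replicates 2 and 3 summed, no member was called in RPF or TE. With that pair summed and siIGF2BP3 RPF replicate 1 left out, an alternative chosen after seeing the data, 5 were called in RPF and 3 in TE. With the replicate number as a block (replicate block), 4 members were called in Input, 0 in RPF, 0 in TE and 45 in siControl RPF against Input, as without it, so the block changed no call count. Same-numbered libraries of siControl and siIGF2BP3 deviated from their group means with correlations of -0.02 to 0.02 in Input and 0.03 to 0.11 in RPF, so the numbers were not taken as a pairing. The 45 calls of RPF against Input lay between 43 and 46 under all alternatives. In the main fit 5771 of 12858 genes were called higher in RPF and 5800 lower, so calls in either direction were about as common among all genes. Medians of the members moved by less than the spread between replicates under all alternatives, from -0.09 to -0.07 in Input, -0.04 to 0.01 in RPF and 0.04 to 0.10 in TE. In RPF and TE this is a weak check, because siIGF2BP3 RPF replicate 1 stood apart from the other replicates. Leaving it out moved the median from -0.03 to 0.01 in RPF and from 0.07 to 0.10 in TE. DESeq2 gave no adjusted p for 3 members in Input (PSMB10, PSMD5, PSMD9) and 3 in TE (PSMB10, PSMD9, PSMG3).

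Footprints per length depended on the length used and on shared reads. The core median of 323 CPM per kilobase became 95.9 with exon length, 333 with pseudogene counts, 334 with read-through counts and 347 with both, and lay between 321 and 325 without 1 siControl RPF library. The regulatory particle median of 127 became 39.1 with exon length, 127 with pseudogene counts, 127 with both, and lay between 125 and 127 without 1 library. The highest over the lowest core subunit, 5.05, became 16.6 with exon length, 4.39 with pseudogene counts, 3.11 with read-through counts and 3.5 with both. For the regulatory particle 13 became 16, 6.05 with pseudogene counts and 6.05 with both. The cause of the changes of calls was not tested. Depth limited the lowest members most, and PSMB10, at 3.51 to 4.61 CPM in Input, had an SE of 0.18 there against a median of 0.06.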
